A study of Mus musculus with 15 samples.

Results

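Small RNA from kidney tissue of male C57BL/6 mice was sequenced at 3 and at 12 months of age, and the 12-month kidneys were compared with the 3-month kidneys. The comparison rests on 10 of the 15 libraries of the series, 5 per age, chosen by the age in the sample labels. Each library came from 1 mouse, with mouse numbers 5 to 9 at 3 months and 17 to 21 at 12 months, and the labels name neither a transgene nor a drug in either group. The remaining 5 libraries, from 24-month mice, entered the fit to estimate the spread between mice. Library totals were 12.2 to 17.6 mega-counts (M) at 3 months and 12.8 to 16.8 M at 12 months.

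A microRNA (miRNA) is cut from a hairpin precursor that yields a 5p and a 3p arm. The arm that is kept guides a silencing complex to messenger RNAs, mainly by pairing of its bases 2 to 8, the seed, so miRNAs with 1 seed share many targets. Kidney miRNAs come mostly from tubule epithelium, but the kidney also holds blood, vessels, immune cells and fibroblasts, each with miRNAs of its own. In whole tissue, a change in the number of cells of a type and a change in the RNA of each cell cannot be told apart. The 8 miRNAs listed for renal tubules were all measured, and summed to 180295 to 220891 CPM (counts in each M, scaled for library composition) at 3 months and 180592 to 201055 CPM at 12 months.

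The libraries also differed in their ribosomal RNA content. Fragments of ribosomal RNA (rRNA) stood at 12.3 to 74.6 CPM in 4 of the 5 libraries of 3 months and 3 of the 5 of 12 months. They stood at 1.12 to 3.64 CPM in 3-month mouse 9, in 12-month mice 19 and 20 and in 4 of the 5 libraries of 24 months. Whether the level differs with age was not tested. With this level in the model, 18 sequences were called, among them 14 of the 16 described next, all but miR-144-5p and miR-203b-3p.

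At 12 months, 16 of 665 tested sequences (2.41%) passed an adjusted p of 0.05, 8 higher and 8 lower, and 15 of them were among the 488 sequences with mouse names (3.07%). The 8 higher ones were miR-124-3p and miR-124-5p, miR-199a-5p, miR-199b-3p, miR-375-3p, miR-511-3p, a miR-653 sequence and miR-203b-3p. The 8 lower ones were miR-335-3p and miR-335-5p, miR-486a-5p, miR-144-3p and miR-144-5p, miR-9-3p, miR-3058-5p and miR-378a-3p. Most changes were small, with 9 of the 16 under 1.5-fold and 3 over 2-fold, namely miR-124-3p, miR-124-5p and miR-486a-5p. Of these, miR-124-5p was at 0 at 3 months and could be tested only because it is high in older mice. The ranges of both ages were separate for 11 of the 16, which held for 29 of all 665 sequences (4.36%). At an unadjusted p of 0.05 there were 98 sequences (14.7%), and 49.3% of all sequences were higher at 12 months.

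The mature sequences of the called miRNAs for which the reference table holds an entry follow, from RefSeq (GRCm38.p6), 5′ to 3′, with the seed in capitals. They show which called miRNAs could share targets. No seed occurs more than once among them. miR-451a is added because its hairpin adjoins that of miR-144.
miR-335-5p: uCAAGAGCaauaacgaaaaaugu
miR-335-3p: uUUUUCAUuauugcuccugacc
miR-144-5p: gGAUAUCAucauauacuguaagu
miR-144-3p: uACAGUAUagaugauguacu
miR-451a: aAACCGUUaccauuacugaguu
miR-199a-5p: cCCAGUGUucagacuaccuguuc
miR-199b-3p: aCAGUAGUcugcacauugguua
miR-511-3p: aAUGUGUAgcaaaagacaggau
miR-203b-3p: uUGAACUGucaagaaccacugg
miR-9-3p: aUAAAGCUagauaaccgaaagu
miR-3058-5p: uCAGCCACggcuuaccuggaaga
miR-653-5p: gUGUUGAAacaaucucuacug

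The counted form of 2 of them starts further in than the RefSeq entry, which moves the seed. For miR-9-3p the counted sequence starts 1 base further in, with the seed AAAGCUA in place of UAAAGCU. For miR-653 it starts 3 bases further in, with the seed UGAAACA. The sequence of miR-199b-3p is also that of miR-199a-3p, so its reads may come from any of the hairpins of both. The miR-203b-3p sequence carries a rat name in the deposited table, with 1 base difference from the rat entry, and is identical to the mouse entry of RefSeq.

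miR-124-3p, the most abundant miRNA of neurons and a marker of them, showed the largest change among sequences detected at both ages. The 3-month mice had 3.56, 2.81, 2.13, 6.18 and 0.394 CPM (mice 5 to 9), and the 12-month mice had 53.4, 123, 63.3, 119 and 123 CPM (mice 17 to 21). Every 12-month mouse lay far above every 3-month mouse, with counts of 707 to 1884 against 6 to 74. The means were 3.01 ± 2.12 and 96.4 ± 34.98 CPM (SD, n = 5 each), a log2 change of 5.05 ± 0.48 (SE, 33.1-fold, adjusted p = 9.87e-06, edgeR). With the rRNA level in the model the log2 change was 5.28 (adjusted p = 2.05e-06). The 24-month mice had 64.0 ± 31.4 CPM (SD, n = 5), a log2 change of 4.46 ± 0.48 (SE) against the same 3-month mice.

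The table lists miR-124-5p, cut from the same hairpins, at 0 in every 3-month mouse. The 12-month mice had 0.679, 1.58, 0.527, 2.49 and 1.44 CPM, from 9 to 33 reads. Since the table lists few values under 5 reads, a 0 was taken as up to 5 reads per library, or 0.273 to 0.417 CPM. Against the mean of that limit over the 3-month libraries, miR-124-5p was at least 3.72-fold higher at 12 months. Its adjusted p of 0.00586 is from the fit to the listed values, with each 0 taken as 0. miR-124-5p entered the test only because it is high in older mice, so this value is not taken as support.

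No other neuronal miRNA was called higher. The neuron list had 9 tested members, 4 higher and 5 lower, with a median log2 change of -0.07. Of these, miR-124-5p, an arm of the same hairpins as miR-124-3p, passed the filter on low counts only through the older mice. Besides the arms of miR-124, 1 member was called, miR-9-3p, which was lower (1.2% of all sequences were called lower). miR-9-3p, from 3 hairpins on chromosomes 3, 7 and 13, had 96.2, 122, 101, 121 and 100.2 CPM in the 3-month mice against 76.5, 78.0, 84.1, 92.2 and 88.3 CPM in the 12-month mice. All 12-month mice lay below all 3-month mice, with a log2 change of -0.36 ± 0.08 (SE, adjusted p = 0.0328). Its other arm, miR-9-5p, had 438 ± 43.1 and 356 ± 41.4 CPM (SD, n = 5), with a log2 change of -0.30 ± 0.09 (SE) that did not pass (adjusted p = 0.0713). miR-137-3p was low, at 0.639 ± 0.752 and 1.65 ± 0.377 CPM (adjusted p = 0.355).

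**Figure D1:**
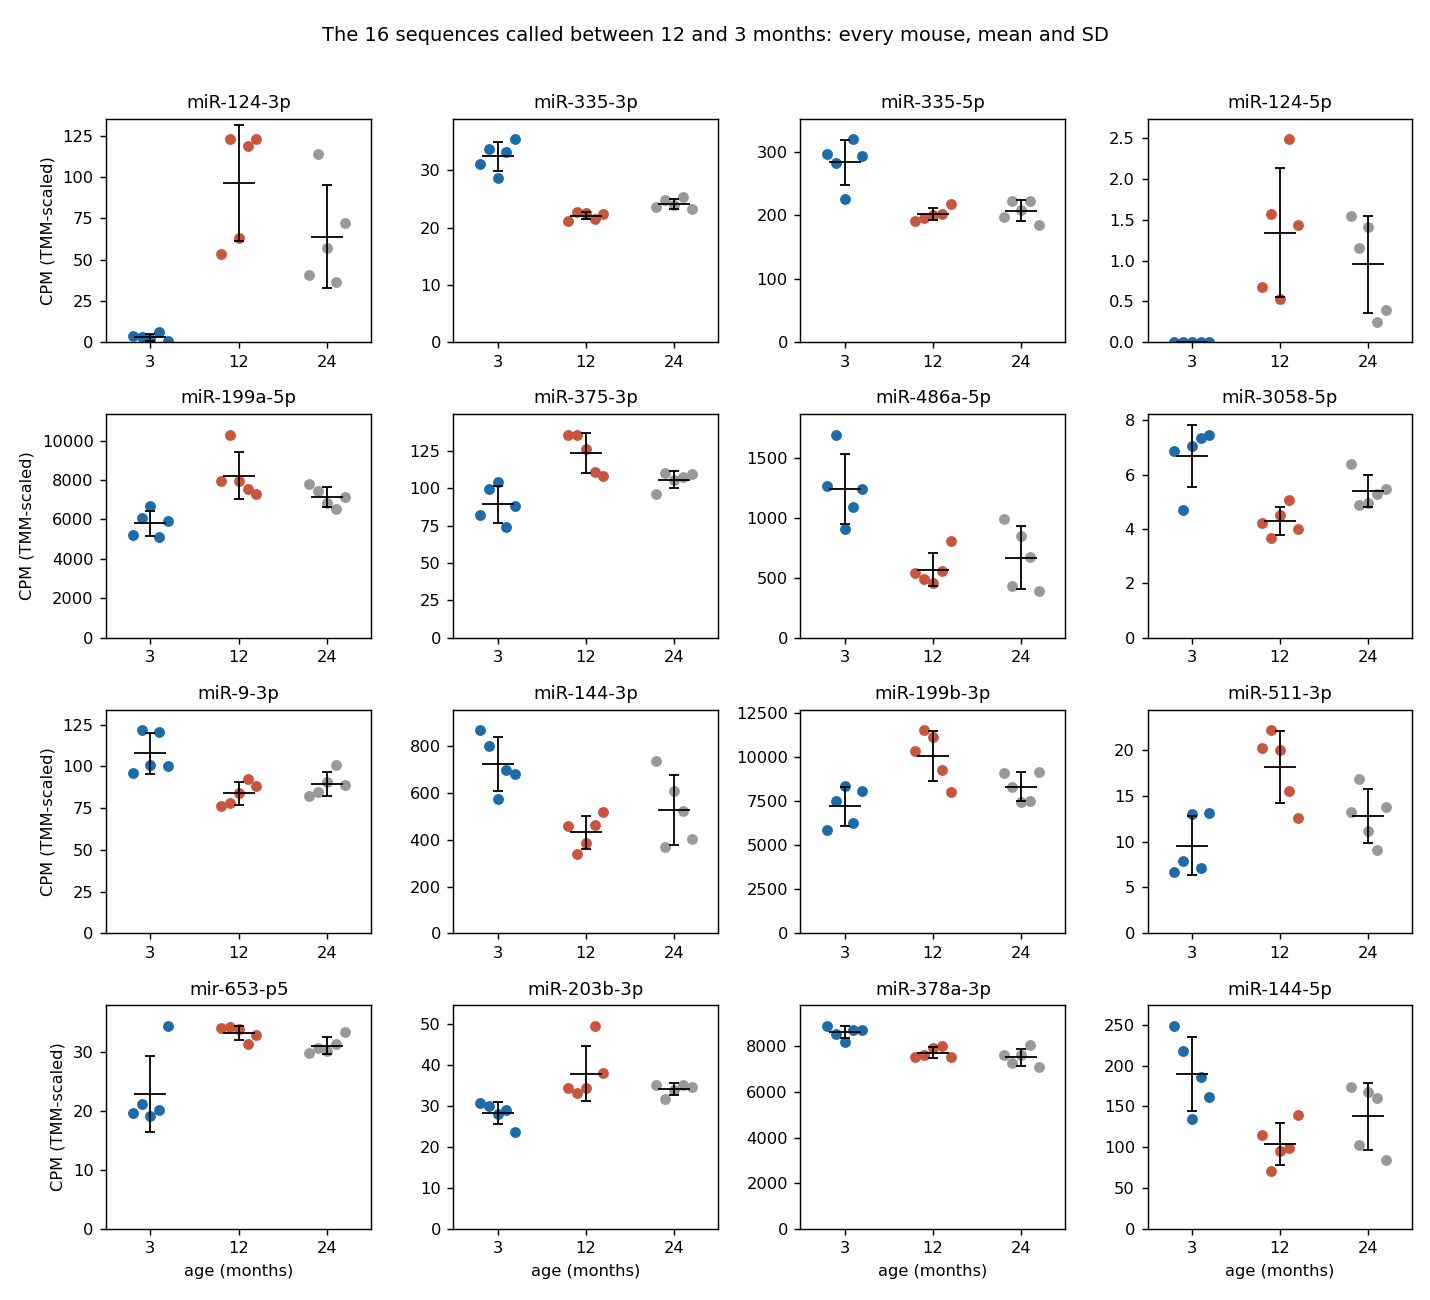
Level in CPM (vertical axis, from 0) of the 16 called sequences in every mouse by age in months (horizontal axis), with 1 point per mouse and the mean and SD in black. miR-124-3p lies at 0.394 to 6.18 CPM in the 3-month mice (blue) and at 53.4 to 123 CPM in the 12-month mice (red), and the 24-month mice are in grey.

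Both arms of miR-335 fell. The hairpin lies in an intron of Mest (GRCm38, chr6:30741299-30741396, plus strand), an imprinted gene expressed from the paternal allele and active in growing tissue. miR-335-3p had 31.2, 33.7, 28.7, 33.2 and 35.5 CPM in the 3-month mice against 21.2, 22.7, 22.6, 21.6 and 22.3 CPM in the 12-month mice. All 12-month mice lay below all 3-month mice, and the SD was 2.59 CPM in the 3-month mice against 0.675 CPM in the 12-month mice. Its log2 change was -0.55 ± 0.07 (SE, adjusted p = 9.59e-05).

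miR-335-5p, the more abundant arm, had 297, 283, 225, 320.4 and 293 CPM in the 3-month mice against 192, 196, 200.3, 202 and 217 CPM in the 12-month mice. Here too the ranges were separate. The log2 change was -0.49 ± 0.08 (SE, adjusted p = 0.00387). With the rRNA level in the model the changes were -0.56 (adjusted p = 0.000171) for the 3p arm and -0.49 (0.00793) for the 5p arm. At 24 months the means were 24.2 ± 0.861 and 207 ± 16.6 CPM (SD, n = 5), with log2 changes of -0.42 and -0.45 against the shared 3-month mice (adjusted p = 0.0026 and 0.00925).

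Besides miR-335, 1 more miRNA of the list of imprinted hosts was tested. miR-296-5p, from the Gnas region (chr2:174267047-174267125, minus strand), had 1.86, 1.83, 1.59, 1.92 and 2.69 CPM in the 3-month mice against 1.36, 0.825, 0.585, 0.377 and 0.719 CPM in the 12-month mice. The ages did not overlap, but counts were low, 5 to 18 at 12 months, and the log2 change of -1.35 ± 0.35 (SE) fell just outside the threshold (adjusted p = 0.05045). Of the 10 members of the list 3 were tested, and all 3 were lower and did not overlap (4.36% of all sequences did not). Their median log2 change was -0.55 against 0.00 over all 665 sequences. The list was chosen with earlier results of these data known, so this count is no independent support. The 2 called ones are the arms of the single miR-335 hairpin, and 1.2% of all sequences were called lower. The large imprinted Dlk1-Dio3 cluster had 20 tested members, 6 higher and 14 lower, with none called, 1 lower at an unadjusted p of 0.05 against 7.67% of all sequences (miR-409-5p, log2 change -0.71 ± 0.25 SE, adjusted p = 0.149) and a median of -0.19.

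Of the 5 tested miRNAs of red blood cells, 3 fell, miR-486a-5p and the arms of the single miR-144 hairpin. miR-451a and miR-144 come from 1 locus between genes on chromosome 11 (Mir144, chr11:78073005-78073070, and Mir451a, chr11:78073170-78073241, plus strand), active in erythroid cells, and miR-486a-5p is abundant in the same lineage. miR-486a-5p had 1262, 1695, 909.6, 1089.9 and 1239.7 CPM in the 3-month mice against 537, 487, 455, 555 and 811 CPM in the 12-month mice. The ranges were separate, with a log2 change of -1.12 ± 0.24 (SE, adjusted p = 0.0271). At 24 months it stood at 666 ± 262 CPM (SD, n = 5).

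miR-144-3p had 869.6, 803, 575, 699 and 680.4 CPM in the 3-month mice against 458, 339, 387, 465 and 517 CPM in the 12-month mice. All 12-month mice were below all 3-month mice, with a change of -0.74 ± 0.17 on the log2 scale (SE, adjusted p = 0.0328). miR-144-5p had 249, 218, 135, 186 and 162 CPM in the 3-month mice against 115, 70.6, 95.0, 99.1 and 139.6 CPM in the 12-month mice. Mouse 21 lay above 3-month mouse 7, and the log2 change was -0.87 ± 0.22 (SE, adjusted p = 0.0459), a call lost with the rRNA level in the model (adjusted p = 0.0569).

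miR-451a, the most abundant of the group, had 5153, 5206, 2714, 3753 and 3394 CPM in the 3-month mice against 2274, 1520.0, 1824, 2166 and 3291 CPM in the 12-month mice. Mouse 21 lay above 3-month mouse 7, and the log2 change of -0.87 ± 0.22 (SE) missed the threshold (adjusted p = 0.05045). miR-486b-3p had 4.32 ± 0.764 and 3.10 ± 1.05 CPM (SD, n = 5), with an adjusted p of 0.461. All 5 had a log2 change under 0, with a median of -0.87, and 1.2% of all sequences were called lower. Their summed level was 4337 to 7928 CPM in the 3-month mice against 2417 to 4762 CPM in the 12-month mice, so the ranges overlapped.

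With this summed level in the model, 3 sequences were called in place of 16, namely miR-124-3p (log2 change 4.796, adjusted p = 0.000577), miR-124-5p (adjusted p = 0.0270) and miR-335-3p (-0.53, adjusted p = 0.0270). Of these, miR-124-5p could be tested only because it is high in older mice. The log2 change of miR-335-5p was then -0.35 and that of miR-199a-5p 0.33, neither called (adjusted p = 0.381 and 0.477). The erythroid level itself had a median of 5730.7 CPM at 3 months against 3287.5 CPM at 12 months, a difference that was not tested. Its part in the other results was not tested further.

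The miRNAs of white blood cells stood mostly higher at 12 months, without a call. Of the 10 tested leukocyte members, 9 were higher and 1 lower, with 5 higher and 1 lower at an unadjusted p of 0.05 (7.07% and 7.67% of all sequences) and a median log2 change of 0.30. miR-142a-3p, found in all blood lineages, had 351, 313, 401, 301 and 533 CPM in the 3-month mice against 661, 466, 505, 489 and 618 CPM in the 12-month mice. 3-month mouse 9 lay within the 12-month range, and the log2 change of 0.53 ± 0.14 (SE) missed the threshold (adjusted p = 0.05045). miR-142a-5p had a change of 0.47 ± 0.14 on the log2 scale (SE, adjusted p = 0.0899).

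miR-155-5p, an inflammation-linked miRNA of activated leukocytes, had 110.5, 74.5, 102, 80.6 and 105 CPM in the 3-month mice against 156, 126, 107, 114 and 136 CPM in the 12-month mice. Only 12-month mouse 19 lay within the 3-month range, and the log2 change was 0.44 ± 0.12 (SE, adjusted p = 0.0526). miR-150-5p, typical of mature lymphocytes, was the 1 member whose groups did not overlap (4.36% of all sequences did not). It had 140.97 to 157 CPM in the 3-month mice against 162 to 246 CPM in the 12-month mice. Its log2 change was 0.37 ± 0.12 (SE, adjusted p = 0.100). miR-223-3p, of neutrophils and monocytes, had 96.6 ± 34.2 and 139.6 ± 23.9 CPM (SD, n = 5), a log2 change of 0.53 ± 0.19 (SE, adjusted p = 0.173).

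The remaining leukocyte members had smaller differences. The log2 changes were 0.22 for miR-146a-5p, 0.19 for miR-342-3p, 0.20 for miR-223-5p and 0.01 for miR-342-5p (adjusted p = 0.495, 0.511, 0.926 and 0.992). miR-181a-5p, which also occurs outside leukocytes, was lower, with a log2 change of -0.14 (SE 0.06, unadjusted p = 0.0404, adjusted p = 0.289). The summed level was 7451 to 9580 CPM in the 3-month mice against 8701 to 10637 CPM in the 12-month mice, so the groups overlapped.

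**Figure D2:**
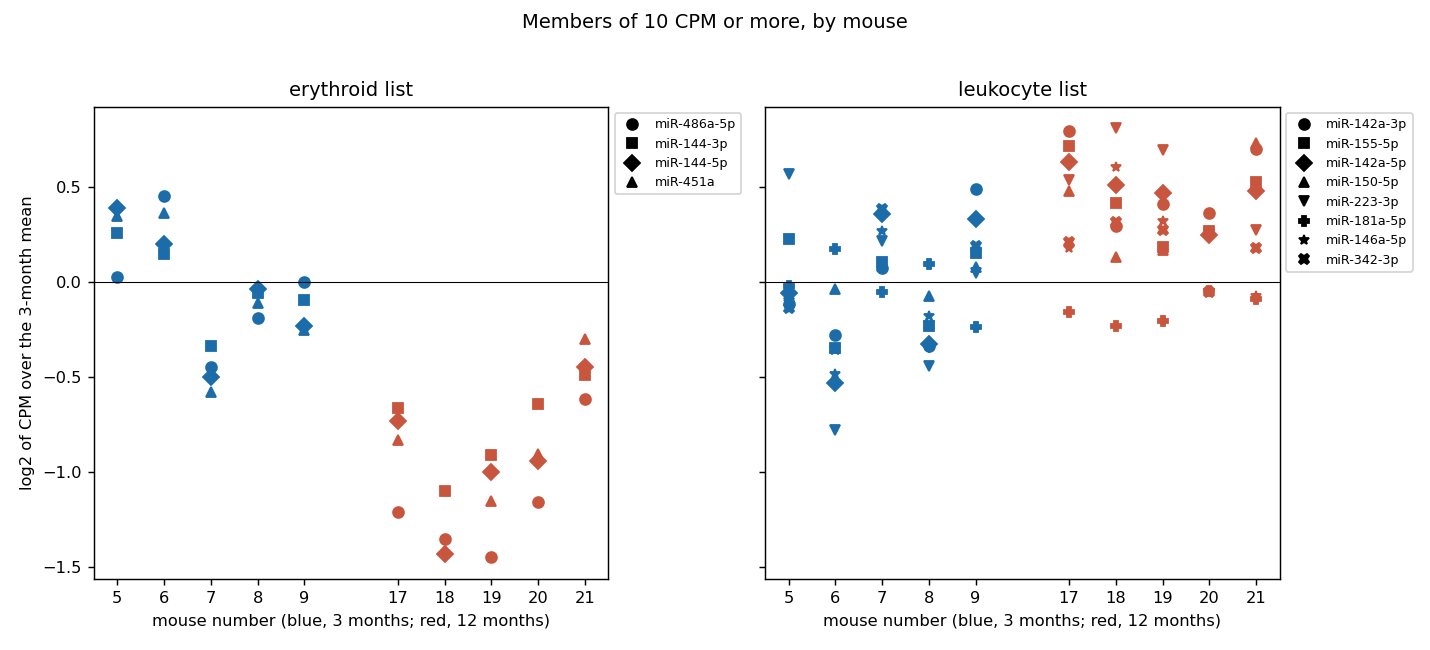
Log2 of the level of each mouse over the 3-month mean (vertical axis) for the erythroid and leukocyte members of 10 CPM or more, by mouse number (horizontal axis; blue, 3 months; red, 12 months; 1 symbol per miRNA). The 4 erythroid members moved together from mouse to mouse, and mouse 21 stood closest to the 3-month mice.

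Both called miR-199 sequences, known from fibroblasts and other mesenchymal cells, rose. miR-199a-5p comes from Mir199a-1 (chr9:21496495-21496564, minus strand) and Mir199a-2 (chr1:162217814-162217923, plus strand), the latter within an exon of Dnm3os. It had 5232, 6049, 6703, 5085 and 5903 CPM in the 3-month mice against 7964, 10306, 7963, 7564 and 7309.8 CPM in the 12-month mice. The ranges were separate, mouse 18 stood highest, and the log2 change was 0.50 ± 0.09 (SE, adjusted p = 0.00658).

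miR-199b-3p had 5859.6, 7538, 8372, 6292 and 8094 CPM in the 3-month mice against 10360.0, 11549, 11147, 9282 and 8012 CPM in the 12-month mice. 12-month mouse 21 lay below 3-month mice 7 and 9, and the log2 change was 0.48 ± 0.11 (SE, adjusted p = 0.0328). miR-214-3p, from the same Dnm3os transcript (chr1:162223368-162223477), had 174, 227, 290.1, 169.9 and 239 CPM against 314, 429, 322, 269.7 and 263 CPM. Its groups overlapped and its log2 change of 0.54 ± 0.15 (SE) did not pass (adjusted p = 0.0662), nor did that of miR-214-5p (0.42 ± 0.14, adjusted p = 0.128).

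Of the 8 tested members of the mesenchymal and smooth muscle list, with miR-199a-3p counted as miR-199b-3p, 5 were higher and 3 lower, and both miR-199 sequences were called (1.2% of all sequences were called higher). The smooth muscle members lay near 0. Both arms of miR-143 and miR-145a lay between log2 changes of -0.05 and 0.01. The list's median was 0.22. The endothelial miR-126a-3p had a log2 change of 0.00 ± 0.05 and miR-126a-5p of 0.05 ± 0.07 (SE, adjusted p = 0.977 and 0.786).

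miR-511-3p and miR-375-3p were the other called miRNAs with a known link to a cell type. miR-511 lies in an intron of Mrc1 (chr2:14261003-14261081, plus strand), the macrophage mannose receptor gene. miR-511-3p had 6.71, 7.91, 13.0, 7.09 and 13.1 CPM in the 3-month mice against 20.2, 22.1, 20.01, 15.6 and 12.5 CPM in the 12-month mice. Only mouse 21 lay within the 3-month range, with a log2 change of 0.91 ± 0.22 (SE, 1.88-fold, adjusted p = 0.0410).

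miR-375-3p, best known from pancreatic islets, had 81.9, 99.2, 104, 73.7 and 87.8 CPM in the 3-month mice against 136, 136, 126, 111 and 108 CPM in the 12-month mice. No mouse overlapped between ages, with a log2 change of 0.46 ± 0.09 (SE, adjusted p = 0.0159). It was the 1 of 4 pancreas members that passed the filter on low counts, since miR-216a-5p and miR-217-5p did not and miR-216b-5p was not analysed here. At 24 months miR-375-3p stood at 106 ± 5.74 CPM (SD, n = 5).

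The remaining calls are of less studied miRNAs and of miR-378a-3p. mir-653-p5 (Mir653, chr6:3721301-3721385, minus strand), in an intron of the calcitonin receptor gene Calcr, had 19.6, 21.2, 19.1, 20.1 and 34.4 CPM in the 3-month mice against 34.1, 34.1, 33.8, 31.3 and 32.9 CPM in the 12-month mice. 3-month mouse 9, of the lower rRNA level, lay above all 12-month mice, and the others lay below all of them. The log2 change was 0.54 ± 0.13 (SE, adjusted p = 0.0410). In a fit of the libraries of the higher rRNA level alone it was 0.74 (adjusted p = 0.00683), and only this sequence and miR-124-3p were called there. In that fit miR-335-3p had -0.54 (adjusted p = 0.0801), miR-335-5p -0.50 (0.141) and miR-199a-5p 0.55 (0.171). The neighbouring miR-489-3p had 8.25 ± 2.88 and 10.7 ± 0.697 CPM (SD, n = 5), a log2 change of 0.37 ± 0.17 (SE, adjusted p = 0.286).

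The miR-203b-3p sequence (chr12:112130887-112130946, minus strand) had 30.7, 30.0, 28.1, 29.1 and 23.7 CPM in the 3-month mice against 34.3, 33.2, 34.5, 49.7 and 38.0 CPM in the 12-month mice. The groups did not overlap, with a log2 change of 0.42 ± 0.10 (SE, adjusted p = 0.0430). This call was lost with the rRNA level in the model (log2 change 0.40, adjusted p = 0.0569). miR-3058-5p (chr10:95559231-95559321, minus strand), in an intron of Nudt4, had 6.87, 4.72, 7.05, 7.34 and 7.48 CPM against 4.23, 3.68, 4.51, 5.06 and 3.99 CPM. 3-month mouse 6 lay within the 12-month range, and the log2 change was -0.64 ± 0.14 (SE, adjusted p = 0.0328).

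miR-378a-3p, which is linked to mitochondrial metabolism, was among the most abundant called miRNAs and had the smallest change. It had 8910.1, 8548, 8217, 8729 and 8741 CPM in the 3-month mice against 7518, 7636, 7948, 8018 and 7548 CPM in the 12-month mice. The ages did not overlap, with a change of -0.16 ± 0.04 on the log2 scale (SE, adjusted p = 0.0454). miR-378d and miR-378c, counted with the same seed (the RefSeq entry of miR-378d has another), had log2 changes of -0.21 ± 0.07 and -0.13 ± 0.07 (SE, adjusted p = 0.120 and 0.380). The other arm, miR-378a-5p, had -0.13 ± 0.05 (adjusted p = 0.237). Of the 8 tested members of the hypoxia and metabolism list, 3 were higher and 5 lower, with miR-375-3p called higher and miR-378a-3p lower (1.2% of all sequences in each direction) and a median of -0.04. The metabolic miR-33-5p and the hypoxia-induced miR-210-3p did not pass (log2 changes 0.24 and -0.18, adjusted p = 0.288 and 0.443).

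**Figure D3:**
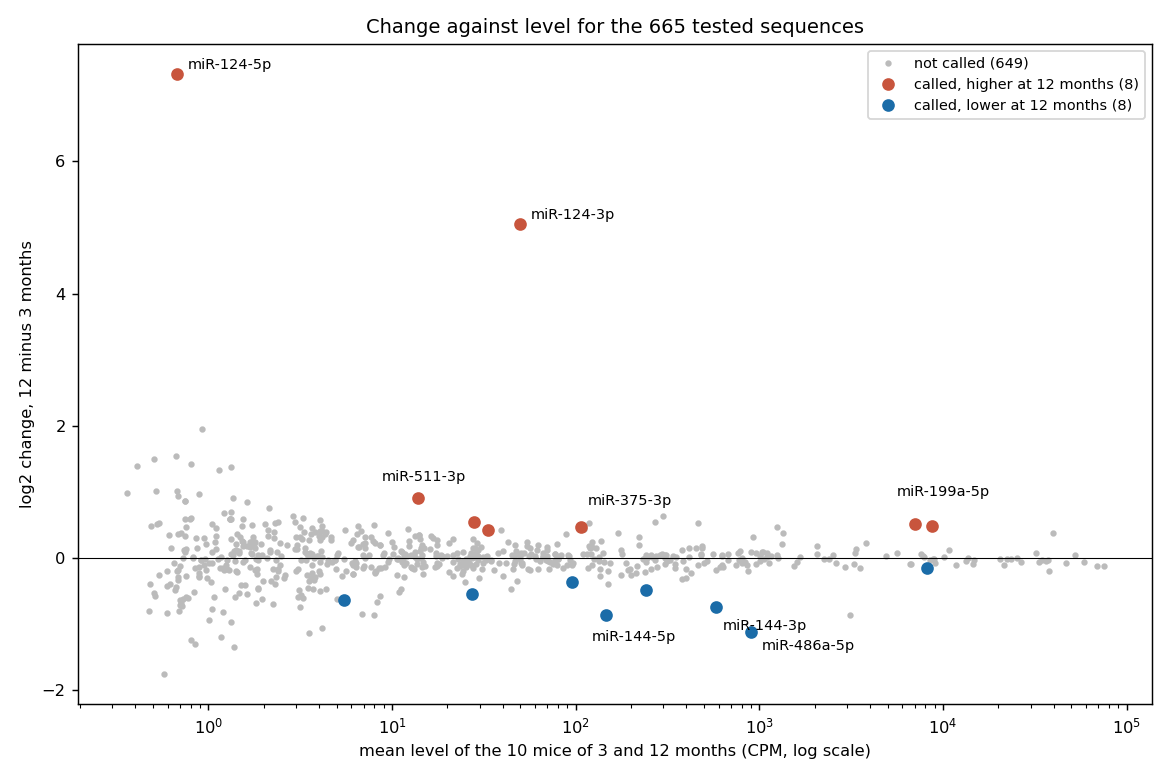
Log2 change between 12 and 3 months (vertical axis) against the mean CPM of the 10 mice (horizontal axis, log scale) for the 665 tested sequences, with calls in red (8 higher) and blue (8 lower). Among the 10 most abundant miRNAs the largest change was 0.38 (miR-21a-5p), and the value of miR-124-5p, listed at 0 in all 3-month mice, depends on the prior count of the fit.

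The most abundant kidney miRNAs changed little, and none of the first 10 was called. miR-30c-5p led with 77900 ± 3943 CPM in the 3-month mice against 71744 ± 3406 CPM in the 12-month mice (SD, n = 5 each), a change of -0.12 ± 0.05 on the log2 scale (SE, adjusted p = 0.231). miR-10a-5p, miR-30a-5p, miR-26a-5p, miR-30e-5p, miR-10b-5p, let-7c-5p, miR-143-3p and let-7f-5p had log2 changes from -0.20 to 0.04. miR-21a-5p, which rises in injured and fibrotic kidney, was the exception among the 10 in size. It had 31336, 32776, 39173, 28794 and 39949 CPM in the 3-month mice against 49402, 55959, 47874, 36263 and 34335 CPM in the 12-month mice. 12-month mice 20 and 21 lay within the 3-month range, and the log2 change of 0.38 ± 0.13 (SE) did not pass (adjusted p = 0.120).

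In the miR-200, miR-30 and miR-29 families all tested members lay on 1 side of 0, by small amounts and without a call. Main arms of these families are shown because each holds members of 1 shared seed (RefSeq, GRCm38.p6, seed in capitals). miR-141-3p and miR-200a-3p share 1 seed of the miR-200 family, and miR-200b-3p, miR-200c-3p and miR-429-3p the other.
miR-141-3p: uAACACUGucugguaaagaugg
miR-200a-3p: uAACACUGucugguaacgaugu
miR-200b-3p: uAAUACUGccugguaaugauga
miR-200c-3p: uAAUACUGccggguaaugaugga
miR-429-3p: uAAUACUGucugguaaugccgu
miR-30a-5p: uGUAAACAuccucgacuggaag
miR-30c-5p: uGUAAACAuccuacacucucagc
miR-30e-5p: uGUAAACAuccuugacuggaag
miR-29a-3p: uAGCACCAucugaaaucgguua
miR-29b-3p: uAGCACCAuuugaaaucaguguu
miR-29c-3p: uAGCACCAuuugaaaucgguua

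The miR-200 family maintains the epithelial state by repressing Zeb1 and Zeb2. All 9 tested members were lower at 12 months, none was called and 5 were lower at an unadjusted p of 0.05 (7.67% of all sequences), with a median log2 change of -0.11. miR-200b-3p had 12386, 12474, 12342, 11837 and 12007 CPM in the 3-month mice against 11314, 11549, 11426, 11059.8 and 11247 CPM in the 12-month mice. The ranges were separate, although the log2 change was only -0.11 ± 0.03 (SE, adjusted p = 0.0662). miR-200c-3p also did not overlap, at 859 to 998 and 709.6 to 849 CPM (log2 change -0.20 ± 0.06 SE, adjusted p = 0.0802). miR-200a-3p, the most abundant member, had a log2 change of -0.03 ± 0.04 (SE, adjusted p = 0.799).

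In the miR-30 family, abundant in tubules and podocytes, all 11 members were lower, with none called, 5 lower at an unadjusted p of 0.05 (7.67% of all sequences) and a median log2 change of -0.09. miR-30c-2-3p (254 to 301 CPM in the 3-month mice against 231 to 249 CPM in the 12-month mice) and miR-30e-3p (1559.7 to 1641 and 1346 to 1533 CPM) did not overlap between ages. Both are 3p arms, without the shared seed, and their log2 changes were -0.17 ± 0.05 and -0.12 ± 0.05 (SE, adjusted p = 0.0831 and 0.196). The miR-29 family, which represses collagens and other matrix genes, had 7 of 7 higher, none called, 3 higher at an unadjusted p of 0.05 (7.07% of all sequences) and a median of 0.19. Among its 3p arms, which carry the shared seed, only miR-29c-3p passed that unadjusted threshold (log2 change 0.21 ± 0.08 SE, adjusted p = 0.231). miR-29b-2-5p did not overlap, at 18.9 to 20.3 and 20.9 to 25.9 CPM (log2 change 0.28 ± 0.08 SE, adjusted p = 0.0885). miR-29a-3p, the bulk of the family, had a log2 change of 0.08 ± 0.05 (SE, adjusted p = 0.481).

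The X-linked Mir322-Mir503 cluster, which restrains cell division, also had a single direction. All 11 tested members were lower, none was called and 7 were lower at an unadjusted p of 0.05 (7.67% of all sequences), with a median log2 change of -0.24. miR-503-3p (chrX:53053984-53054054, minus strand) had 52.4, 58.8, 47.6, 64.3 and 45.7 CPM in the 3-month mice against 43.7, 38.4, 43.3, 41.8 and 42.9 CPM in the 12-month mice. No mouse overlapped between ages, with a change of -0.35 ± 0.09 on the log2 scale (SE, adjusted p = 0.0526). miR-542-3p (chrX:53049403-53049487) had 40.6 to 47.9 CPM in the 3-month mice against 32.5 to 38.8 CPM in the 12-month mice, a log2 change of -0.28 ± 0.08 (SE, adjusted p = 0.0673). These members are cut from neighbouring hairpins, so they are not independent of each other.

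The miR-34 family, transcribed under p53 and linked to senescence, stood higher. Of the 9 members of the p53 and senescence list, 8 were higher, none was called, 4 were higher at an unadjusted p of 0.05 (7.07% of all sequences) and the median log2 change was 0.31. miR-34a-5p had 1302, 937, 1002, 1019 and 1586 CPM in the 3-month mice against 1673, 1441, 1512, 1533 and 1408 CPM in the 12-month mice. 3-month mouse 9 lay within the 12-month range, and the log2 change was 0.37 ± 0.12 (SE, adjusted p = 0.108). miR-34c-5p did not overlap, at 169 to 225 and 230.2 to 267 CPM (log2 change 0.31 ± 0.09 SE, adjusted p = 0.0790).

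Of the 22 tested members of the kidney fibrosis list, 12 were higher and 10 lower, with miR-199a-5p and miR-199b-3p called higher and both arms of miR-335 called lower, against 1.2% of all sequences in each direction. At an unadjusted p of 0.05, 8 were higher and 5 lower (7.07% and 7.67% of all sequences), and the median log2 change was 0.13. Many of them stand in the lists above. The let-7 family (9 members, 1 higher, median -0.04), the miR-17-92 group (17 members, 12 higher, median 0.03) and the renal tubule list (8 members, 2 higher, median -0.05) had no call. At an unadjusted p of 0.05 the first and second of these had no member and the third had 1, miR-10b-5p (log2 change -0.20 ± 0.08 SE, adjusted p = 0.232).

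The 5 tested miRNAs of striated muscle were all lower, with none called, 3 lower at an unadjusted p of 0.05 (7.67% of all sequences) and a median log2 change of -0.47. miR-208a-3p, from an intron of the cardiac myosin gene Myh6, had 3.88, 3.95, 3.88, 3.00 and 5.05 CPM in the 3-month mice against 2.42, 1.65, 2.22, 2.94 and 2.61 CPM in the 12-month mice. The groups did not overlap, and the log2 change of -0.74 ± 0.19 (SE) missed the threshold (adjusted p = 0.05045). miR-1a-3p and miR-133a-3p overlapped, and 3-month mouse 5 had the highest value of both, 244 and 74.7 CPM. The hepatocyte miR-122-5p had a log2 change of -0.01 ± 0.66 (SE, adjusted p = 0.992).

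**Figure D4:**
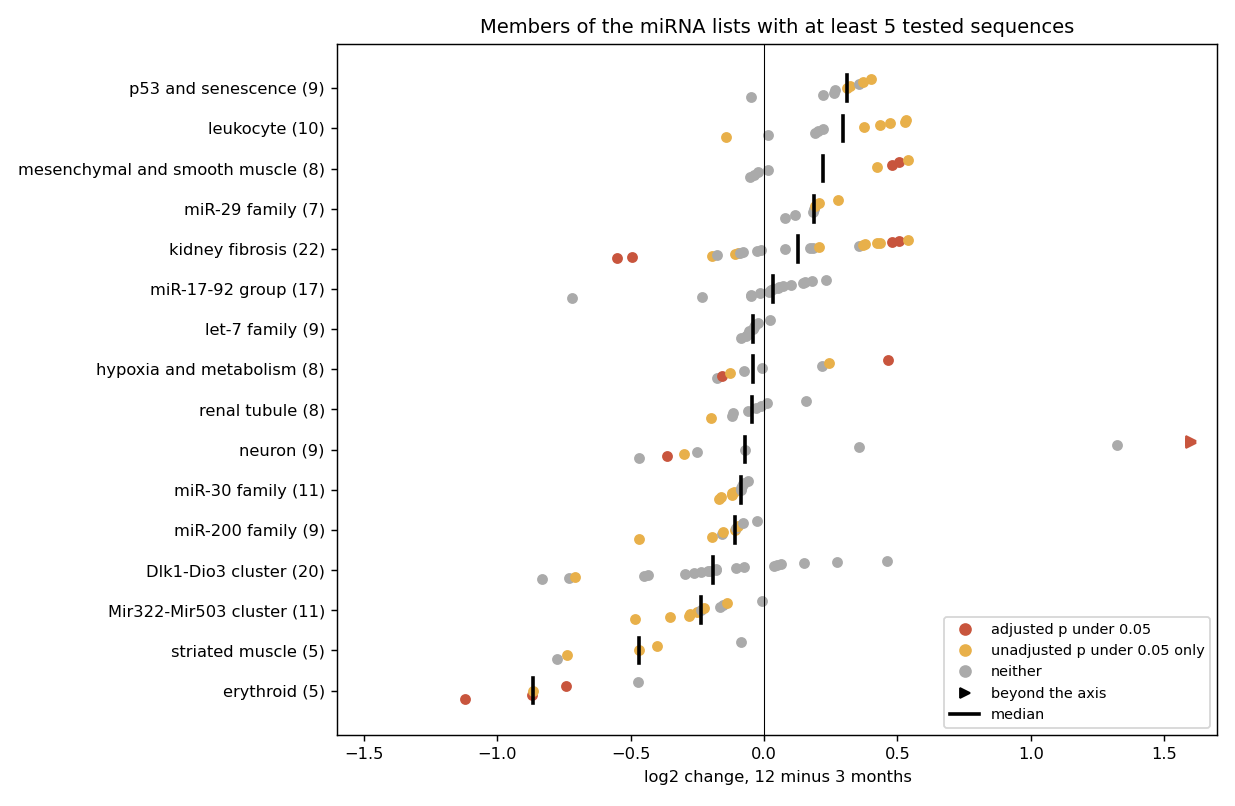
Log2 change between 12 and 3 months (horizontal axis) of each tested member of the lists with at least 5 tested sequences (vertical axis, number tested in brackets), coloured by whether it passed the adjusted or the unadjusted threshold, with the median as a black bar. The erythroid list lies lowest (median -0.87) and both arms of miR-124 lie beyond the right end of the axis.

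Counts were then summed over mouse miRNAs with 1 seed, since a target site meets their sum. Of 391 seed families, 27 (6.91%) were called, 17 higher and 10 lower, and 24 of the 27 hold a single sequence. Among the 27, 14 have a called member and 13 do not. The family of miR-378a-3p, itself a called sequence, was not called (log2 change -0.13 ± 0.04 SE, adjusted p = 0.0990). Only mouse-named sequences enter these sums, and the median log2 change was 0.03 in place of 0.00. The 10 with the smallest p were those of miR-124-3p, miR-335-3p, miR-199a-5p, miR-335-5p, miR-375-3p, miR-124-5p, miR-199b-3p, mir-653-p5, miR-486a-5p and miR-511-3p, each a single sequence. That of miR-124-5p, at 0 at 3 months, could be tested only because it is high in older mice.

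The families called without a called member are named here after their values were seen. miR-142a-3p, miR-574-5p, miR-155-5p, miR-214-3p, miR-339-5p, miR-29b-2-5p, miR-139-5p, miR-150-5p and the families of miR-34 and miR-142a-5p were higher in this fit. miR-296-5p, miR-451a and the miR-208 family were lower. All but the families of miR-34, miR-142a-5p and miR-208 are single sequences, so nothing was summed. Their calls rest on the counts not called above, refitted with other scaling and 391 tests in place of 665. For miR-339-5p the log2 change was 0.18 (adjusted p = 0.0799) by sequence and 0.21 (0.0353) here. The miR-34 and miR-449 family of 4 sequences, of which miR-34a-5p made up 85.7%, had 1362 ± 263 CPM in the 3-month mice against 1794 ± 137 CPM in the 12-month mice (SD, n = 5), a log2 change of 0.40 ± 0.11 (SE, adjusted p = 0.0368). It was called in 2 of the 15 fits without 1 mouse, miR-29b-2-5p in 1 and miR-339-5p, miR-139-5p and miR-150-5p in 0. None of the 13 was called with the 10 libraries of 3 and 12 months alone, where the adjusted p was 0.0612 to 0.128. The 27 families became 8 to 12 when 3-month mouse 5, 6 or 8 or 12-month mouse 17, 18 or 19 was left out, and 17 without 12-month mouse 21.

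Both arms of a hairpin were then compared, because they start in equal numbers. Of 130 hairpins with both arms at 1 CPM or more, 0 had an arm ratio that differed between the ages past the threshold (limma, 0.0%), and 6 (4.62%) did at an unadjusted p of 0.05. The arms changed in the same direction in 96 hairpins (73.8%), with a Pearson r of 0.70 over 130 hairpins, whose arms were counted in the same libraries. Without 3-month mouse 6 or 7 the arm ratios called were 1 and 2. The smallest adjusted p was 0.230, for miR-15b, whose 5p arm had a log2 change of -0.15 and whose 3p arm 0.28. For miR-21a the values were 0.38 and -0.18 (ratio 0.55 ± 0.16 SE, adjusted p = 0.252).

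**Figure D5:**
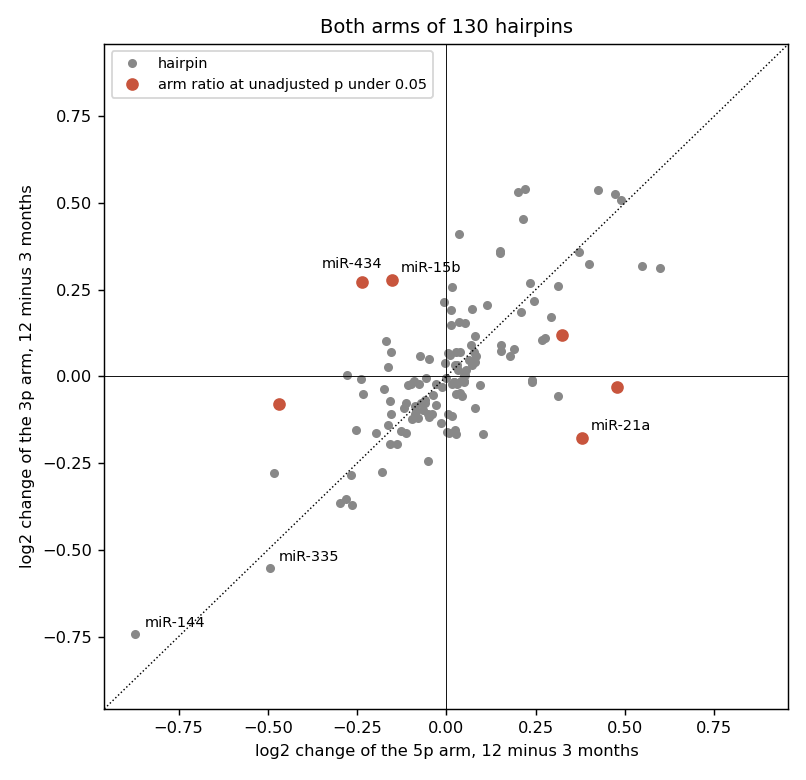
Log2 change of the 5p arm (horizontal axis) against that of the 3p arm (vertical axis) for 130 hairpins, with the dotted line marking equal change and the 6 hairpins whose ratio had an unadjusted p under 0.05 in red. Both arms of miR-144 and miR-335 lie near the line at the lower left.

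Not all calls held whichever mouse was left out. Over 15 fits that each left out 1 mouse, miR-124-3p, miR-335-3p, miR-335-5p and miR-199a-5p were called every time. miR-124-5p was too, but being at 0 at 3 months it could be tested only where it is high. The call of miR-375-3p depended on 3-month mouse 5 (adjusted p = 0.0604 when it was left out), 3-month mouse 8 (0.0551) and 12-month mouse 17 (0.0742). Leaving out any 1 of 3-month mice 5, 6 and 8 and 12-month mice 17, 18 and 19 removed miR-486a-5p, miR-144-3p, miR-199b-3p, miR-511-3p, mir-653-p5 and miR-144-5p, with adjusted p up to 0.0771, 0.0878, 0.0982, 0.0982, 0.102 and 0.103. Beyond these, 24-month mouse 34 mattered for miR-144-3p, and 12-month mouse 20 and 24-month mouse 33 for miR-199b-3p. 12-month mouse 20 and 24-month mice 31 and 33 mattered for miR-511-3p, and these and 24-month mouse 34 for miR-144-5p. mir-653-p5 held only without 3-month mouse 9 or 24-month mouse 32 or 35. miR-9-3p dropped out in the fits lacking 3-month mouse 6 or 8 or 12-month mouse 17, 18 or 19 (up to 0.0878), and miR-3058-5p in those lacking 3-month mouse 5 or 8 or 12-month mouse 17, 18, 19 or 21 (up to 0.0830). miR-378a-3p held only without 3-month mouse 7, 12-month mouse 20 or 24-month mouse 35 (otherwise up to 0.129), and miR-203b-3p in 0 of the 15 fits (up to 0.0982). With only the 10 libraries of 3 and 12 months in the fit, 6 of the 16 were called, namely miR-124-3p, miR-335-3p, miR-335-5p, miR-199a-5p, miR-486a-5p and miR-144-3p. miR-124-5p did not pass the filter on low counts there, and the other 9 had an adjusted p of 0.0543 (miR-375-3p) to 0.133 (miR-203b-3p). The calls numbered 5 in the fit lacking 3-month mouse 8 and 6 in each fit lacking 3-month mouse 5 or 12-month mouse 17, 18 or 19. They numbered 8 in the fit lacking 3-month mouse 6 and 10 in that lacking 24-month mouse 33.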

How the data were processed

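Total RNA was sequenced as Illumina TruSeq small RNA libraries. The authors deposited a table of expected counts, in which the reads of a sequence with several places are divided among 1318 lines, and a normalized signal, which equals the counts times 1 constant per library and was not used. Lines of the same sequence were summed and rounded (1153 sequences). For small RNA, the genome build is not given in the sources used here (GRCm38 is given for long RNA). In GRCm38, 524 of 526 hairpin positions overlap a GENCODE miRNA gene, so RefSeq GRCm38.p6 positions and sequences were used (406 of all tested sequences matched by name or sequence, 141 of them named or listed here). edgeR 4.0.16 in R 4.3.3 was run with TMM, filterByExpr (minimum 10, total 15), all 15 libraries in 1 quasi-likelihood model and the contrast 12 minus 3 months. Adjusted p-values are Benjamini-Hochberg values over all tested sequences, families or hairpins, with a threshold of 0.05. Arm ratios were log2 of counts plus 0.5 in limma 3.58.1. CPM are TMM-scaled. Intervals from counts were not used, and the floor for 0 covers counting error only. Scripts were tested on simulated counts.

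Named are all called sequences, their other arms and seed mates, the 5 largest uncalled changes of at least 10 CPM, the 10 most abundant miRNAs, and list members (all of the erythroid, leukocyte and imprinted lists, otherwise those of smallest p). Members and lists were chosen with earlier results of these data known. The labels give no batch and the replicates are separate mice. Their protocol text speaks of fewer libraries than were analysed.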

Additional observations from a re-analysis of the deposited data

Results flagged for a closer look

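Of 42 groups of 5 mice checked, 5 held a mouse far from the others by Dixon's criterion, and chance flags about 1 group in 20. At 12 months, mouse 18 was highest for miR-199a-5p, with 10306 CPM against 7964 CPM in the next mouse, and for miR-146b-5p, with 581 CPM against 354 CPM. Mouse 21 was highest for miR-486a-5p at 12 months, with 811 against 555 CPM. At 3 months, mouse 6 was lowest for miR-3058-5p, with 4.72 against 6.87 CPM, and mouse 9 was highest for mir-653-p5, with 34.4 against 21.2 CPM. miR-146b-5p had a log2 change of 0.64 ± 0.17 (SE, adjusted p = 0.0538) and was among the largest changes not called, and it is induced by inflammatory signals.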

How the results depend on the processing

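The 16 calls became 42 with DESeq2, 27 when sequences of 1 mature name were summed, 6 with the 10 libraries of 3 and 12 months alone, 2 in libraries of the higher rRNA level and 3 with the erythroid level as a term. Of the 16, the last 3 of these settings kept 6, 2 and 3. Settings added after seeing the data gave 26 calls with ties at 0.5 rounded up, 26 without rRNA sequences and 8 without the erythroid list, of which 8 were among the 16. With 1 mouse left out there were 5 to 23 calls, with 5 to 15 of the 16 kept, 8 to 29 seed families and 0 to 2 arm ratios. The highest number of calls was without 3-month mouse 7, which also gave the 2 arm ratios, and the fewest families without 12-month mouse 18. Seed families were 27, against 41 with DESeq2 and 10 with the 10 libraries alone. With the erythroid level as a term, miR-144-5p (0.030) and miR-451a (0.072) changed sign, and both belong to that list. The causes of the other shifts were not tested. No paired analysis was possible because mouse numbers differ between the ages. Values under about 10 counts per library, as for miR-124-5p and miR-296-5p, limit what this depth can show.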
